A study of Mus musculus with 2 samples.

Results

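The enzymes that make serine, move its one-carbon unit onto folate and carry that unit onward are encoded by 8 genes described here, namely *Phgdh*, *Psat1*, *Psph*, *Shmt1*, *Shmt2*, *Mthfd1*, *Mthfd1l* and *Mthfd2*. They are 8 of the 19813 gene symbols with counts at both ages, and each had UMIs in both libraries. The list was chosen by measured values, since the level of *Phgdh* in Primitive cells at P6 put it among the genes leading that cluster, and the other members are genes of the same pathway. The levels in that cluster are therefore given as a description. Retinal endothelial cells of wild-type C57BL/6 mice, sorted as CD31+CD45-, were sequenced by the 10x droplet method as 1 library from P6 pups and 1 library from P15 pups. The comparison by age asks how endothelial cells of the growing retinal vessels differ from those of the more mature vessels, and the comparison by cluster asks how cells at different stages and in different vessel types differ. How many animals were pooled per library is not given in the sources used here.

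As background, PHGDH, PSAT1 and PSPH turn the glycolytic intermediate 3-phosphoglycerate into serine. The SHMT enzymes split serine into glycine and a one-carbon unit bound to tetrahydrofolate, SHMT1 mainly in the cytosol and SHMT2 in mitochondria. MTHFD enzymes oxidise or reduce that unit or, as MTHFD1L does, release it as formate, for use in thymidylate and purines. Endothelial cells are known to need serine synthesis for nucleotide and heme production when they grow into vessels.

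Each member was found by its Ensembl identifier, and positions are those of GENCODE M21 on GRCm38. In the serine branch, *Phgdh* (ENSMUSG00000053398.11) lies at chr3:98313170-98339990, *Psat1* (ENSMUSG00000024640.9) at chr19:15904678-15947337 and *Psph* (ENSMUSG00000029446.14) at chr5:129765558-129787449, all on the minus strand. *Shmt1* (ENSMUSG00000020534.14) lies at chr11:60788104-60811718 and *Shmt2* (ENSMUSG00000025403.5) at chr10:127517123-127522444, also on the minus strand. *Mthfd1* (ENSMUSG00000021048.7) at chr12:76255298-76319803 and *Mthfd1l* (ENSMUSG00000040675.17) at chr10:3973118-4167081 are on the plus strand, and *Mthfd2* (ENSMUSG00000005667.8) at chr6:83305691-83325908 is on the minus strand. The members are thus spread over 7 chromosomes. Exons of *Psph* share 452 bases with *Cct6a* on the other strand, and those of *Shmt1*, *Shmt2* and *Mthfd1* share 184, 32 and 37 bases with *Smcr8*, *Ndufa4l2* and *Gm47525*. The strand used in counting is not given in the sources used here, so molecules from these overlaps cannot be told apart.

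The promoters shown are those of the 4 members that were at least 3-fold lower at P15 (the values follow). These genes were picked by that cut, so their shared direction is not a result, and shared regulation was not tested. Each line holds the 100 bases before the RefSeq start site on GRCm38.p6, read 5′ to 3′ along the gene, with capitals marking the letters CCAAT on either strand (ATTGG when read from the other). The *Phgdh* stretch is chr3:98339970-98340069, that of *Psat1* chr19:15925060-15925159, that of *Shmt1* chr11:60811266-60811365 and that of *Mthfd2* chr6:83317605-83317704, all minus strand. In GENCODE M21, where starts can lie further upstream, 21 bases at the end of the *Phgdh* stretch and 2 bases of the *Mthfd2* stretch are in an exon of the gene, and the stretches of *Psat1*, *Shmt1* and *Mthfd2* lie inside the gene.
Phgdh: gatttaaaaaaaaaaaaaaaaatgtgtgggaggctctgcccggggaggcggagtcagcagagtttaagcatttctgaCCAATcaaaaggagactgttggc
Psat1: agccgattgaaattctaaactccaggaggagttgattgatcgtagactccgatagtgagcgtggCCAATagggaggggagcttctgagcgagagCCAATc
Shmt1: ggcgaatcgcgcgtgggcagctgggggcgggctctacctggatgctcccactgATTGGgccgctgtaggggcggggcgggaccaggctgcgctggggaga
Mthfd2: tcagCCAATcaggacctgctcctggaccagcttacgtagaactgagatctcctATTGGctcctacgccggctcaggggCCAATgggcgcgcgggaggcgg
These 100 bases hold 1 such box for *Phgdh*, 2 for *Psat1*, 1 for *Shmt1* and 3 for *Mthfd2*. The window of the other *Psat1* start holds 0, and the 100 bases before the start of *Psph*, which was not lower at P15, hold 2. RefSeq gives 9 windows of 250 bases before to 50 bases after a start for the 8 members, with 2 for *Psat1*, among 32851 windows in all. CCAAT occurs on either strand in windows of 6 of 8 members, the exceptions being *Shmt2* and *Mthfd1l*, and in 37.4% of all windows. GGGCGG occurs in 5 of 8 members and in 35.7% of all windows, and TTGGCGC in 2 of 8, *Phgdh* and *Shmt1*, against 2.45% of all windows. No member window holds TGATGNAA (3.97% of all windows), CACGTG (7.15%), TTTCGCGC (0.323%), TTTGGCGC (0.514%, which contains TTGGCGC), TGACGTCA (1.79%) or TGACTCA (5.20%). A match is a run of letters in a window, and no factor's binding was measured.

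The P6 library held 13958124 UMIs (unique molecular identifiers, 1 per captured mRNA) in 1984 cell barcodes, and the P15 library 11589641 UMIs in 2141 barcodes. The study's exclusion criteria as applied here left 1424 cells at P6 and 1644 at P15, called passing cells, whose median depths were 4985.5 and 4214.5 UMIs. The study's labelled cells include 161 at P6 and 29 at P15 with more than 3500 genes, so passing cells are not the study's own set of cells. The libraries shared 7 barcodes, of which 0 had identical counts. Levels are UMIs of a gene per 1000000 UMIs of all genes (CPM), summed over the cells of a group, with exact 95% Poisson intervals, and ratios carry exact conditional 95% intervals. These intervals cover counting error only, since with 1 library per age there is no replicate and no test over animals. CPM is not corrected for transcript length, so levels are compared within a gene and not between genes.

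Other features of the libraries moved with age. Among passing cells, all 10 of 10 endothelial markers had UMIs at both ages, with a sum of 9694 CPM at P6 and 15172 CPM at P15, led by *Cldn5*. The 8 mural markers summed to 11.4 and 273 CPM, led by *Rgs5*, with *Cspg4* at 0 at P6. The 8 glial markers summed to 369 and 1229 CPM, nearly all from *Glul* (366 and 1161 CPM), and *Pax2* was not found at either age. The 9 neuronal markers summed to 17.9 and 42.3 CPM, led by *Sag*, the 7 microglial markers to 1.96 and 5.70 CPM with *Ptprc* not found, and the 5 erythrocyte markers to 22.6 and 173 CPM, led by *Hbb-bs*. *Neurod1* and *Hbb-bt* are at 0 because cells with them were left out. Ribosomal protein genes took 18.2% of UMIs at P6 and 10.5% at P15. *Xist* was at 45.4 CPM at P6 and 18.7 CPM at P15, and the Y-linked *Uty* at 28.0 and 65.0 CPM. The part of these differences in the results by age was not tested.

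*Phgdh*, which encodes the enzyme of the first step of serine synthesis, was at 23.5 CPM at P6 (20.2 to 27.2; 180 UMIs) and 2.85 CPM at P15 (1.76 to 4.35; 21 UMIs). It was 8.26-fold lower at P15 (interval 5.24 to 13.7). At least 1 *Phgdh* UMI was found in 10.5% of P6 cells and 1.16% of P15 cells. With each cell thinned at random to 3000 UMIs, which left 1245 P6 and 1163 P15 cells and dropped 179 and 481 shallower ones, the shares were 6.02% and 0.774%. The difference therefore remained at equal depth.

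*Psat1*, whose enzyme makes phosphoserine in the second step, was at 33.6 CPM (29.6 to 38.0) at P6 and 9.90 CPM (7.76 to 12.5) at P15, 3.39-fold lower (2.61 to 4.46). Its thinned shares were 9.32% and 2.75% of cells, against 15.4% and 4.14% before thinning. *Psph*, whose enzyme removes the phosphate in the last step, was at 18.6 CPM (15.6 to 21.9) at P6 and 22.2 CPM (19.0 to 25.9) at P15. The *Psph* ratio of P15 to P6 was 1.20 (0.951 to 1.51), and its thinned shares were 5.22% and 6.28%, and over labelled cells the ratio was 0.993 (0.697 to 1.39). Its side of 1 thus changed with the cells used, and both intervals hold 1.

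**Figure D1:**
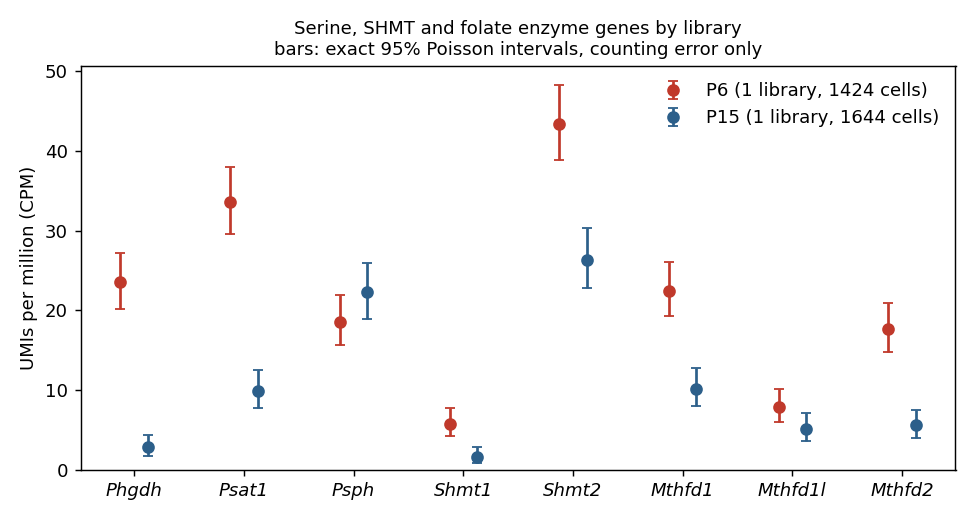
Level in CPM of each member in the P6 (red, 1424 cells) and P15 (blue, 1644 cells) libraries, with exact 95% Poisson bars for counting error. *Phgdh* stood at 23.5 and 2.85 CPM, while the bars of *Psph* (18.6 and 22.2 CPM) and *Mthfd1l* (7.84 and 5.16 CPM) overlap between the ages.

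*Shmt1*, for the cytosolic SHMT, was at 5.75 CPM (4.18 to 7.72; 44 UMIs) at P6 and 1.63 CPM (0.841 to 2.84; 12 UMIs) at P15, 3.53-fold lower (1.83 to 7.35). *Shmt2*, for the mitochondrial SHMT, was at 43.4 CPM (38.9 to 48.3) and 26.3 CPM (22.7 to 30.3), 1.65-fold lower (1.38 to 1.98). Both were lower at P15, and their thinned shares were 1.61% and 0.516% for *Shmt1* and 11.8% and 8.08% for *Shmt2*.

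*Mthfd1*, for the cytosolic enzyme with several activities on folate, was at 22.5 CPM (19.3 to 26.1) at P6 and 10.2 CPM (8.003 to 12.8) at P15, 2.21-fold lower (1.68 to 2.94). *Mthfd1l*, for the mitochondrial enzyme that releases formate, was at 7.84 CPM (5.99 to 10.1) and 5.16 CPM (3.65 to 7.08), and its ratio of 0.657 has an interval of 0.426 to 1.003. *Mthfd2*, for a mitochondrial dehydrogenase and cyclohydrolase, was at 17.7 CPM (14.8 to 20.9) and 5.56 CPM (3.99 to 7.55), 3.17-fold lower (2.22 to 4.62). The thinned shares were 6.59% and 2.75% for *Mthfd1*, 1.77% and 1.46% for *Mthfd1l* and 5.46% and 2.15% for *Mthfd2*. The folate branch was thus lower at P15 for *Mthfd1* and *Mthfd2*, while the *Mthfd1l* difference was within counting error in passing cells. The *Mthfd1l* ratio was 0.667 (0.331 to 1.23) over labelled cells and 0.510 (0.375 to 0.688) over all barcodes. Whether its interval holds 1 thus changed with the cells used.

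Counting genes with at least 50 UMIs over both sides, 7 of 8 members were lower at P15 by 1.5-fold or more and 0 were higher, and 6 of 8 had an interval wholly below 1. Of all 10972 genes counted in this way 11.8% were lower and 18.8% higher. The median ratio was 0.384 over the members and 1.09 over all genes, a log2 of 0.12. With ribosomal and mitochondrial genes left out of the totals, the all-gene median log2 was −0.01, 15.6% of genes were lower and 13.5% higher, and 7 of 8 members were again lower. Summed over the members, the level was 173 CPM at P6 and 83.8 CPM at P15, 2.06-fold lower (1.87 to 2.27). By branch, the 3 serine genes summed to 75.7 CPM at P6 and were 2.16-fold lower at P15, the SHMT genes summed to 49.2 and 27.9 CPM and the MTHFD genes to 48.0 and 20.9 CPM.

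Cells carry the study's cluster labels, which cover all 1560 labelled P6 cells and 438 P15 cells in the copy used here. Clusters were made from expression of the same cells, so a cluster against the rest is a description. *Phgdh* at P6 was at 55.2 CPM (41.2 to 72.4) in Primitive cells and 52.0 CPM (41.6 to 64.1) in Proliferative cells. It followed at 23.0 CPM in Capillary, 18.0 in Cap-Venous, 14.95 in Stalk, 14.1 in Venous, 12.5 in Tip, 3.59 in Cap-Arterial and 0 in Arterial cells. In this order the intervals of neighbours overlap except between Proliferative and Capillary cells. Arterial cells had 0 UMIs in 40 cells, which allows a share of cells with a UMI of up to 8.81%. The thinned share of cells with a *Phgdh* UMI was 19.0% in Proliferative, 10.3% in Primitive and 2.26% in Cap-Arterial cells, against 32.8%, 26.5% and 1.85% before thinning, at median depths of 7954.5, 5148 and 4473.5 UMIs. After thinning the interval of Primitive cells (6.02% to 16.2%) overlapped that of every other cluster except Stalk (1.95%, 0.534% to 4.92%).

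*Psat1* had the same upper pair, with 77.0 CPM (64.3 to 91.5) in Proliferative and 65.8 CPM (50.5 to 84.4) in Primitive cells. The other clusters ran from 28.5 CPM in Stalk down to 13.2 CPM in Cap-Arterial cells, and the pair was again the point where neighbouring intervals parted. Its thinned shares were 22.6% in Proliferative and 17.4% in Primitive cells, against 46.0% and 32.9% before. *Psph* ran from 10.8 CPM in Cap-Arterial to 30.4 CPM in Arterial cells (6 UMIs), with 19.1 CPM in Proliferative and 23.4 CPM in Primitive cells. For *Psph* every pair of neighbours in the order overlapped, and against all other labelled cells Cap-Arterial cells had a ratio of 0.510 (0.229 to 0.989).

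*Shmt1* was at 14.9 CPM in Proliferative, 9.55 CPM in Primitive and at most 7.12 CPM in the other clusters, with 0 UMIs in Arterial cells. *Shmt2* was at 65.8 CPM in Primitive cells (50.5 to 84.4), 49.1 in Tip and 46.6 in Proliferative cells, down to 25.3 CPM in Arterial cells (5 UMIs). Neighbours in both orders overlapped, and for *Shmt2* Primitive cells came before Proliferative cells.

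*Mthfd1* was at 47.8 CPM (37.9 to 59.4) in Proliferative cells, with an interval apart from that of Stalk cells, next in order at 24.9 CPM (17.4 to 34.7), and 21.2 CPM in Primitive cells. *Mthfd1l* was at 16.7 CPM in Proliferative and 13.8 CPM in Primitive cells, with 0 UMIs in Venous and Arterial cells. *Mthfd2* was at 35.2 CPM in Proliferative, 31.8 in Primitive and 26.8 in Tip cells, and its 40.5 CPM in Arterial cells rests on 8 UMIs in 4 cells, 4 of them in 1 cell.

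**Figure D2:**
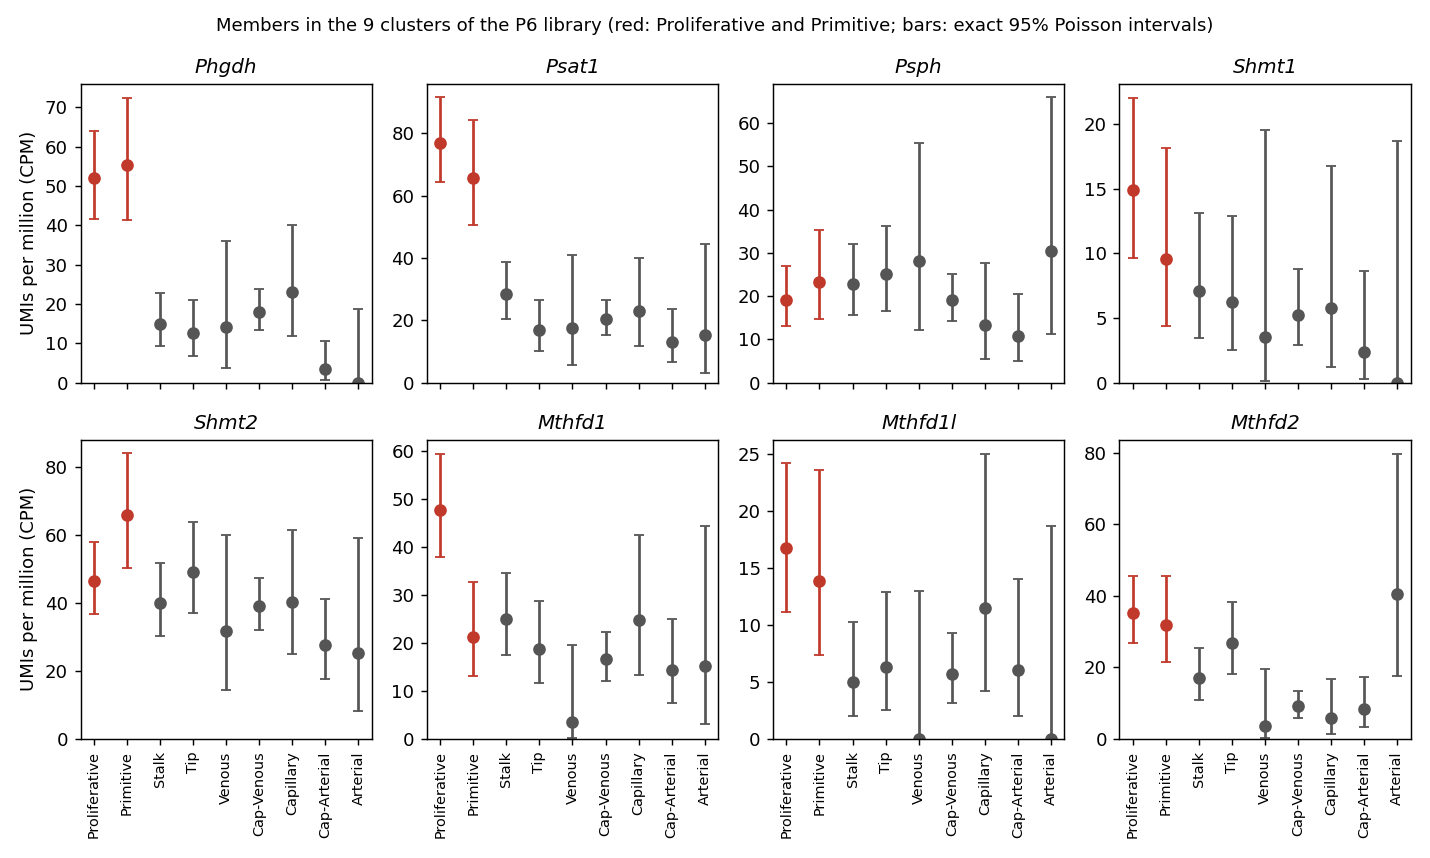
Level in CPM of each member in the 9 P6 clusters, with Proliferative and Primitive cells in red and exact 95% Poisson bars. *Phgdh* (52.0 and 55.2 CPM) and *Psat1* (77.0 and 65.8 CPM) have their highest levels in these clusters, and *Mthfd1* (47.8 and 21.2 CPM) is highest in Proliferative cells.

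Against the other labelled P6 cells, 5 of 8 members were higher by 1.5-fold or more in Primitive cells and 0 lower, where 5.65% of 9834 genes were higher and 43.1% lower. This is the contrast that chose *Phgdh*, and nothing is read from the count. The ratios were 2.54 (1.83 to 3.47) for *Phgdh*, 2.10 (1.57 to 2.77) for *Psat1*, 1.63 (1.22 to 2.14) for *Shmt2*, 1.78 (1.16 to 2.64) for *Mthfd2* and 1.77 (0.895 to 3.23) for *Mthfd1l*. *Psph* at 1.17, *Shmt1* at 1.34 and *Mthfd1* at 0.884 were within 1.5-fold. The median over all genes was 0.739, with ribosomal genes at 23.8% of UMIs in Primitive cells against 18.3% over all labelled P6 cells. After thinning 3 of the 6 members with enough UMIs were higher, *Phgdh*, *Psat1* and *Mthfd2*, and *Phgdh* had a ratio of 1.82 (1.03 to 3.06). Of the 7623 genes counted after thinning 8.11% were higher and 42.5% lower. Endothelial markers summed to 5172 CPM in Primitive cells and 9343 CPM over all labelled P6 cells, with 8 of 10 lower by 1.5-fold or more, and the part of this in the members' levels was not tested.

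In Proliferative cells 6 of 8 members were higher and 0 lower, against 10.3% higher and 13.6% lower of all genes. The ratios were 2.69 (2.04 to 3.52) for *Phgdh*, 2.98 (2.37 to 3.73) for *Psat1* and 2.59 (1.52 to 4.30) for *Shmt1*. In the folate branch they were 2.55 for *Mthfd1*, 2.51 for *Mthfd1l* and 2.21 for *Mthfd2*. *Shmt2* at 1.11 (0.854 to 1.42) and *Psph* at 0.934 (0.618 to 1.37) were near the level of the other cells. Between Arterial and Cap-Venous P6 cells 3 members had enough UMIs, of which *Psph* was higher in Arterial cells (ratio 1.58, 0.556 to 3.69) and *Shmt2* lower (0.648, 0.206 to 1.56). Of 6448 genes 20.7% were higher and 20.2% lower, and the intervals of the 3 members hold 1. *Mthfd2*, below the minimum of 50 UMIs, was at 40.5 against 9.02 CPM (8 and 24 UMIs), a ratio of 4.49 (1.74 to 10.33). Thinned to equal depth, 0 members passed, with 1 counted, where 20.7% of 3951 genes were higher and 23.7% lower.

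The ages were also compared within clusters. *Phgdh* in Primitive cells was at 55.2 CPM in 155 P6 cells and had 0 UMIs in 36 P15 cells. With 3 counts in place of the 0 it was 2.28-fold lower. The exact interval of the ratio reaches 0.559, or 1.79-fold lower. In Cap-Venous cells *Phgdh* was at 18.0 CPM in 414 P6 cells and had 0 UMIs in 134 P15 cells. With 3 counts in place of the 0 it was 4.59-fold lower, and the interval reaches 0.278, or 3.59-fold lower. In Proliferative cells *Phgdh* was at 52.0 CPM at P6 and 36.7 CPM at P15 (4 UMIs in 14 cells), with a ratio of 0.705 (0.188 to 1.87). P15 Proliferative and Primitive cells had median depths of 7570.5 and 2704.5 UMIs, and at 3000 UMIs per cell *Phgdh* had 0 UMIs in both, in 12 and 15 cells.

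*Psat1* in Primitive cells was at 65.8 CPM at P6 and 8.07 CPM at P15 (1 UMI), with a ratio of 0.123 (0.00306 to 0.709), and in Stalk cells at 28.5 and 5.06 CPM, with a ratio of 0.178 (0.0208 to 0.685). *Mthfd1* in Stalk cells was at 24.9 and 5.06 CPM, and *Shmt2* and *Mthfd2* in Tip cells were at 49.1 and 14.1 CPM and at 26.8 and 3.52 CPM. Intervals below 1 were found for 2 members in Primitive, 3 in Stalk, 2 in Tip, 2 in Cap-Venous and 1 in Proliferative cells, and an interval above 1 for 0 members in any cluster. Among all genes with UMIs in the range of the members in the same cluster, intervals below 1 were found for 1.88% in Primitive, 3.70% in Stalk, 2.14% in Tip, 6.09% in Cap-Venous and 1.63% in Proliferative cells, and intervals above 1 for 5.40% to 10.8% in these clusters. The values of Primitive cells include *Phgdh*, whose P6 level there chose the list, so they are a description. Summed over the members the level was 287 CPM at P6 and 96.8 CPM at P15 in Primitive cells, 2.96-fold lower (1.67 to 5.80). Primitive cells of P6 and P15 also differed in mitosis genes (1977 and 80.7 CPM), S phase genes (1228 and 218 CPM), neuronal markers (15.9 and 331 CPM) and mural markers (1.06 and 234 CPM), and the part of these in the members' change was not tested. In Proliferative cells the summed level of the members was 309 and 137 CPM, 2.25-fold lower (1.35 to 4.05). It was 160 and 86.0 CPM in Stalk, 162 and 52.8 CPM in Tip and 133 and 83.8 CPM in Cap-Venous cells. Mitosis genes were at 5057 and 4490 CPM in Proliferative and 746 and 93.6 CPM in Stalk cells. They were at 549 and 165 CPM in Tip and 362 and 113 CPM in Cap-Venous cells. In the same order mural markers were at 2.99 and 64.1, 14.2 and 311, 8.94 and 162, and 11.3 and 147 CPM. The part of these in the members' change was not tested. The intervals of the members' summed ratio hold 1 in Capillary (ratio 0.578, 0.255 to 1.16), Cap-Arterial (0.652, 0.360 to 1.12), Arterial (0.322, 0.0370 to 1.29) and Venous cells (1.46, 0.0358 to 8.82). In labelled P15 Primitive cells against other labelled P15 cells 0 members reached 50 UMIs, where 10.7% of 5833 genes were higher and 36.2% lower.

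Genes of the cell cycle moved with both age and cluster. Summed over 19 S phase genes the level was 765 CPM at P6 and 272 CPM at P15 in passing cells, and over 22 mitosis genes 1348 and 224 CPM. Among P6 clusters the mitosis sum was 5057 CPM in Proliferative, 1977 in Primitive and 348 in Cap-Arterial cells. Labelled P6 cells thinned to 3000 UMIs were therefore split by their UMIs of both lists into 671 cells with 0 to 2, 365 cells with 3 to 9 and 356 cells with 10 or more. Of these 344 had 2 or 3 and 54 had 9 or 10, at the borders of the classes.

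*Phgdh* was at 6.46 CPM (3.44 to 11.04) in cells with 0 to 2 cell cycle UMIs, 20.1 CPM (12.6 to 30.4) with 3 to 9 and 58.1 CPM (44.5 to 74.4) with 10 or more. The outer classes differ 8.99-fold (4.89 to 17.8), and each class lies above the one before it with intervals that do not overlap. *Psat1* was at 12.4, 29.2 and 74.9 CPM in the same order, a ratio of 6.03 (3.81 to 9.87), again without overlap. *Psph* was at 17.9, 19.2 and 19.7 CPM, a ratio of 1.10 (0.610 to 1.93), so its level was alike across the classes within counting error. *Shmt1* was at 1.49, 11.9 and 9.36 CPM, on 3, 13 and 10 UMIs. *Shmt2* was at 33.3, 53.0 and 44.0 CPM, a ratio of 1.32 (0.891 to 1.95), highest in the middle class and with overlapping intervals. *Mthfd1* was at 12.9, 20.1 and 49.6 CPM (ratio 3.84, 2.36 to 6.40) and *Mthfd2* at 8.45, 16.4 and 44.0 CPM (5.21, 2.94 to 9.68), while *Mthfd1l* was at 4.47, 6.39 and 13.1 CPM (2.93, 1.18 to 7.68). Of the 6 members with enough UMIs 4 were higher by 1.5-fold or more in the class with most cell cycle UMIs and 0 lower, against 12.1% higher and 20.2% lower of 6728 genes. Without Proliferative cells 2 members had enough UMIs, *Psat1* and *Shmt2*, and both were higher, against 11.3% higher and 27.3% lower of 6046 genes.

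**Figure D3:**
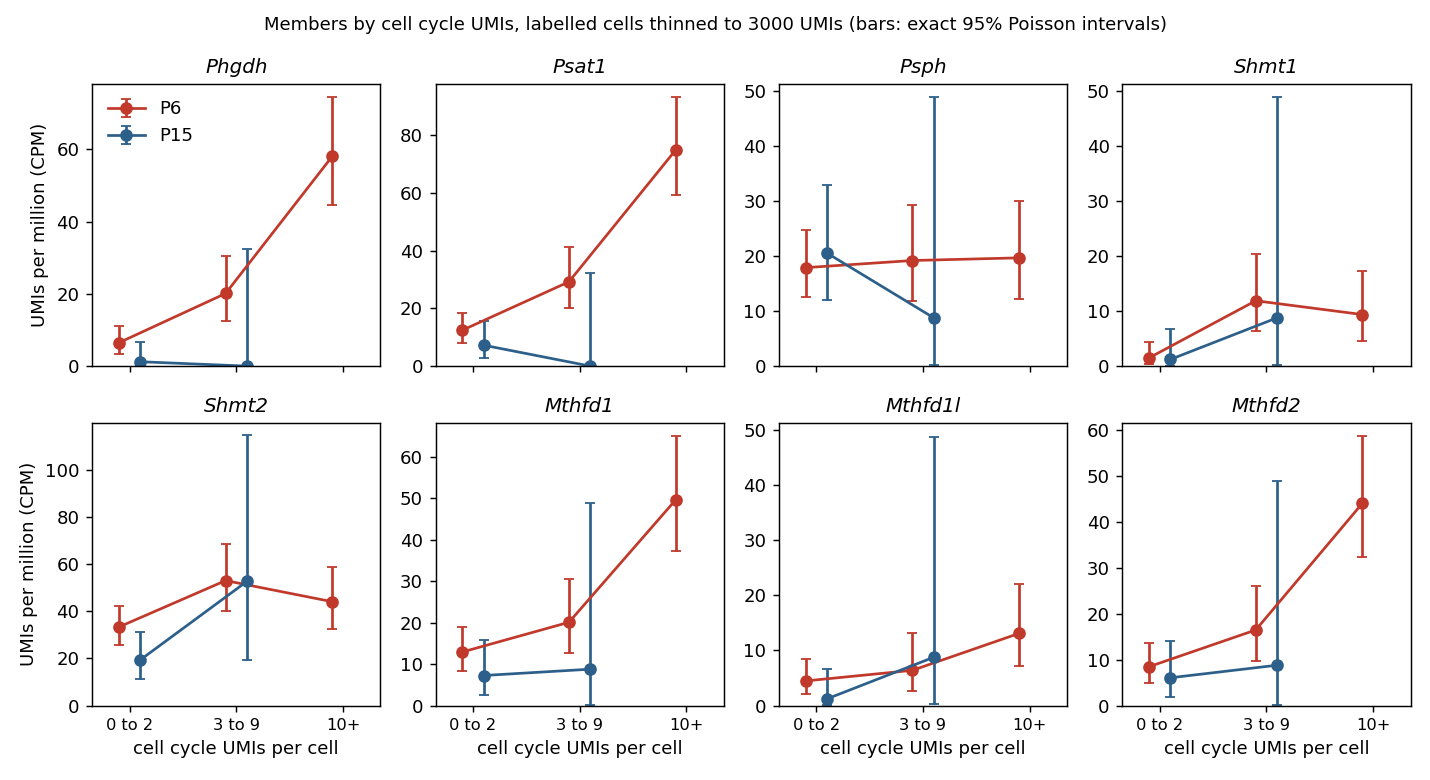
Level in CPM of each member by the number of cell cycle UMIs in a cell thinned to 3000 UMIs, in labelled P6 (red) and P15 (blue) cells, with exact 95% Poisson bars; the 7 P15 cells with 10 or more are not drawn. *Phgdh* went from 6.46 to 58.1 CPM across the P6 classes, and *Psph* from 17.9 to 19.7 CPM.

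The age comparison was repeated in passing cells with 0 to 2 cell cycle UMIs, 627 at P6 and 1016 at P15, at 3000 UMIs each. *Phgdh* was at 5.85 CPM (11 UMIs) at P6 and 2.30 CPM (7 UMIs) at P15, a ratio of 0.393 (0.129 to 1.11). *Psat1* was at 12.8 and 7.55 CPM, a ratio of 0.591 (0.319 to 1.09), and *Psph* at 18.6 and 23.0 CPM, a ratio of 1.23 (0.811 to 1.91). *Shmt2* was at 34.0 and 25.3 CPM (0.742, 0.526 to 1.05), *Mthfd1* at 13.8 and 9.19 CPM (0.665, 0.376 to 1.18) and *Mthfd2* at 8.51 and 7.55 CPM (0.887, 0.449 to 1.80). *Mthfd1l* was at 4.78 and 4.27 CPM, and *Shmt1* had 2 and 5 UMIs. The intervals of 8 of 8 members hold 1, the median ratio was 0.815, and 1 of the 3 members with enough UMIs, *Mthfd1*, was lower by 1.5-fold or more, against 7.84% lower and 15.01% higher of 8210 genes. For single members a difference by age in cells with few cell cycle UMIs was not detectable at this depth, which for *Phgdh* leaves ratios from 0.129 to 1.11. Summed over the 8 members the level was 99.4 CPM at P6 and 80.7 CPM at P15, a ratio of 0.812 (0.669 to 0.987).

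**Figure D4:**
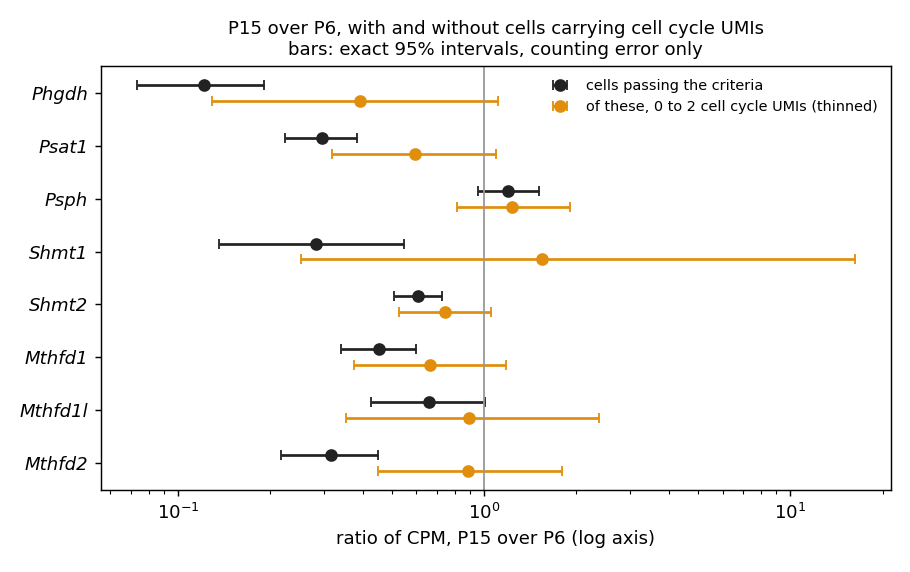
Ratio of P15 to P6 level of each member on a log axis, over all passing cells (black) and over passing cells with 0 to 2 cell cycle UMIs at 3000 UMIs (orange), with exact 95% intervals. The black intervals of 6 members lie below 1, and the orange intervals of 8 of 8 members hold 1, with *Phgdh* at 0.121 and 0.393.

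Primitive P6 cells fell into 25 cells with 0 to 2 cell cycle UMIs, 55 with 3 to 9 and 75 with 10 or more. *Phgdh* had 0 UMIs in the 25 cells, 48.5 CPM (20.9 to 95.5) in the 55 and 44.4 CPM (21.3 to 81.7) in the 75. In cells outside Primitive and Proliferative it was at 6.71 CPM in 646 cells with 0 to 2, 13.3 CPM (6.87 to 23.2) in 301 cells with 3 to 9 and 38.6 CPM (19.3 to 69.1) in 95 cells with 10 or more. The 0 UMIs in the 25 Primitive cells, against 13 in the 646 others, leave a *Phgdh* ratio of up to 8.48. *Shmt2* had 1 UMI in the 25 Primitive cells and 66 in the 646 others, a ratio of 0.392 (0.00977 to 2.26), which is on the other side of 1 from its ratio of 1.63 over all cells. In the same cells the ratio was 2.25 for *Psat1*, 2.349 for *Psph*, 2.15 for *Mthfd1* and 1.62 for *Mthfd2*, on 2, 3, 2 and 1 UMIs, with intervals that all hold 1. *Shmt1* and *Mthfd1l* had 0 UMIs in the 25 Primitive cells, against 3 and 9 in the 646 others.

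Labels of the other P15 cells were predicted from their 15 nearest neighbours among labelled cells. In cross-validation the prediction was right for 74.2% of P15 cells, for 93.4% of Proliferative and for 85.9% of Primitive cells of both ages. In the 39 P15 cells given or predicted as Proliferative, *Phgdh* was at 33.3 CPM (14.4 to 65.5; 8 UMIs) against 2.28 CPM in the other P15 cells, a ratio of 14.6 (5.46 to 35.7). *Psat1* was at 70.7 CPM (41.2 to 113) against 7.90 CPM, a ratio of 8.95 (4.89 to 15.6). *Phgdh* and *Psat1* were therefore higher in Proliferative cells than in other cells at P15 too. The labels rest on expression of the same cells, so this is a description. *Psph* was at 12.5 against 22.6 CPM, a ratio of 0.551 (0.113 to 1.64). In the 152 Primitive cells *Phgdh* had 1 UMI, *Psat1* was at 11.02 CPM with a ratio of 1.13 (0.355 to 2.75) and *Shmt2* at 26.5 CPM with a ratio of 1.03 (0.524 to 1.85). No excess of these members in Primitive cells was detectable at P15.

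At 3000 UMIs per cell, at least 1 of the 8 members was seen in 63.1% of Proliferative, 52.9% of Primitive, 37.1% of Stalk and 20.3% of Cap-Arterial cells at P6. Over all labelled cells the share was 37.8% at P6 and 17.1% at P15, and no labelled cell held more than 4 members. Among the 16 Primitive cells with a *Phgdh* UMI 18.8% also had *Psat1*, and among the 139 without it 17.3% did. The 2 shares overlap in their intervals (4.05% to 45.6% and 11.4% to 24.6%), so no pairing of these genes within Primitive cells was detectable. In labelled P6 cells outside Primitive, *Mthfd1l* was found in 8.33% (3.12% to 17.3%) of the 72 cells with *Phgdh* and in 1.80% (1.12% to 2.74%) of the 1165 without it, and the intervals of the other members overlapped. The *Mthfd1l* share with *Phgdh* rests on 6 cells. These shares pool clusters, among them Proliferative cells, in which both genes were higher than in other cells. Pairing within those clusters was not tested.

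Across the 9 P6 clusters, 5871 genes had at least 200 UMIs, 4 members among them. As a description over 9 clusters of 1 library, log levels of *Phgdh* went most closely with *Wdr18* (r = 0.978), *Slc25a4*, *Rnaseh2c*, *Hmgn2* and *Gm8186*. Those of *Psat1* went with *Snrpd1* (0.978), *Lsm2*, *Birc5*, *Cenpm* and *Ccnb2*, and those of *Shmt2* with *Atp5mpl* (0.971), *Dctd*, *Eif2s2*, *Me2* and *Rpl5-ps1*. *Mthfd1* went with *Mcm3* (0.943), *Mphosph10*, *Ezh2*, *Incenp* and *Cand1*. Between members, r was 0.889 for *Phgdh* with *Psat1*, 0.922 with *Shmt1*, 0.857 with *Shmt2* and 0.803 with *Mthfd1l*. It was 0.531 with *Mthfd1*, −0.08 with *Psph* and 0.147 with *Mthfd2*. The *Mthfd2* value includes Arterial cells, in which *Phgdh* had 0 UMIs and *Mthfd2* had 8 UMIs in 4 cells.

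The genes around the members were taken from 11 lists with 71 genes, 67 with counts at both ages. Of the 55 with enough UMIs, 12 were higher and 18 lower at P15 by 1.5-fold or more, with a median ratio of 0.941. Of the thymidylate list 3 of the 3 genes counted were lower, and among them *Tyms* encodes the enzyme that uses the folate product of SHMT. *Tyms* was at 89.2 and 18.0 CPM, *Dut* at 97.4 and 16.7 CPM and *Tk1* at 76.1 and 10.4 CPM. Of the 6 purine synthesis genes 4 were lower, *Ppat*, *Gart*, *Pfas* and *Atic*, the last at 44.1 and 15.7 CPM. Over all genes 11.8% were lower. The median ratio was 0.171 for thymidylate and 0.621 for purine synthesis.

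Carriers of serine, glycine and related amino acids were lower for 5 of 7 and higher for 1. *Slc1a4*, which carries serine and alanine, was at 102 CPM at P6 and 9.09 CPM at P15, 11.2-fold lower, and *Slc1a5* at 37.9 and 6.24 CPM. *Slc38a5*, which carries glutamine, serine and glycine, was at 752 and 684 CPM, and *Sfxn3*, of the mitochondrial sideroflexin family, was higher at 30.5 and 68.8 CPM.

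Outside these lists directions were mixed. Glycine cleavage had 1 of 3 genes lower (*Gcsh*), folate uptake and retention 2 of 4 lower (*Slc19a1*, *Fpgs*) and 1 higher (*Slc25a32*), and folate interconversion 0 of 3 in either direction. The methionine cycle had *Mat2b* higher and *Ahcy* lower of 5, glutathione synthesis *Gclm* higher and *Gss* lower of 3, and use of serine in lipids *Serinc1* and *Srr* higher of 7. *Atf4* encodes a factor known to act on *Phgdh*, *Psat1*, *Shmt2* and *Mthfd2*. *Atf4* itself was at 78.6 and 97.0 CPM, and of 12 genes of its list 5 were higher at P15 (*Ddit3*, *Trib3*, *Sesn2*, *Ddit4*, *Nupr1*) and 0 lower, against 18.8% higher and 11.8% lower of all genes. The other 7 were within 1.5-fold. *Myc* was at 32.6 and 11.1 CPM, and *Mycn* at 21.3 and 61.5 CPM.

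**Figure D5:**
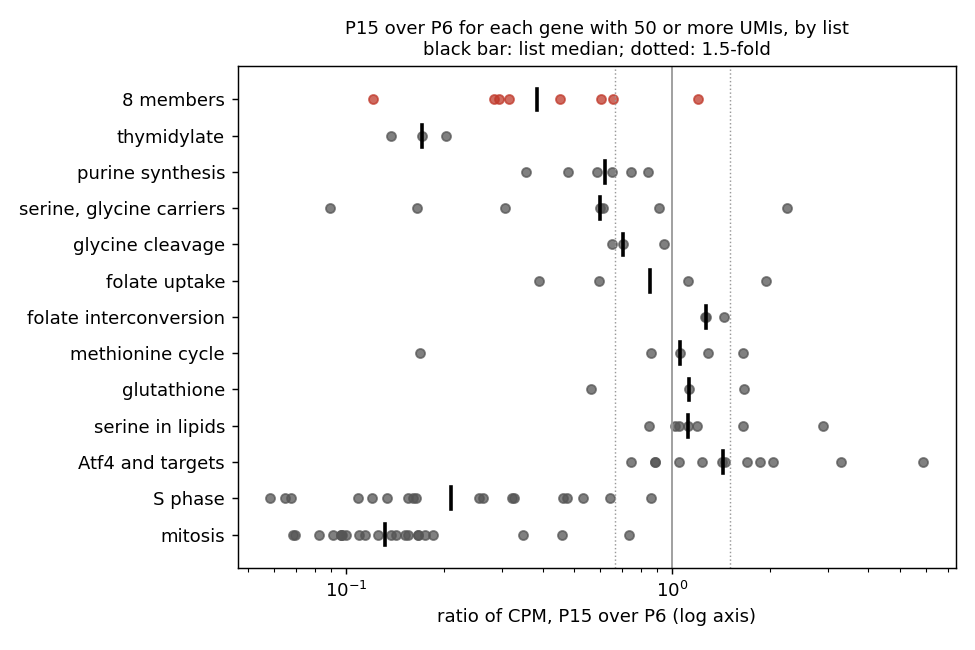
Ratio of P15 to P6 level on a log axis for each gene with at least 50 UMIs, by list, with the list median as a black bar and 1.5-fold as dotted lines. The members have a median of 0.384, between the thymidylate list (0.171) and purine synthesis (0.621), and *Atf4* with its targets has 1.44.

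In Primitive cells at P6 all 3 thymidylate genes counted were higher, such as *Dut* at 220 CPM against 97.9 CPM, where 5.65% of all genes were higher. Of 7 carriers 4 were lower, such as *Slc38a2* at 133 CPM against 409 CPM and *Slc1a4* at 41.4 against 105 CPM, where 43.1% of all genes were lower. In Proliferative cells 3 of 3 thymidylate and 4 of 6 purine synthesis genes were higher, where 10.3% of all genes were higher. The thymidylate median ratio was 3.85 there and 2.24 in Primitive cells. Of 7 carriers in Proliferative cells 2 were higher, such as *Slc1a5* at 61.5 against 34.8 CPM. Another 2 were lower, such as *Slc1a4* at 52.5 against 108 CPM, where 13.6% of all genes were lower. *Amt*, of glycine cleavage, was highest in Stalk cells, at 68.4 CPM against 8.86 CPM in the rest (ratio 7.71, 5.63 to 10.6), a cluster in which 0 members were highest. Between Arterial and Cap-Venous cells 1 of 7 carriers was higher, *Sfxn3* at 121 against 24.8 CPM, and 4 were lower, against 20.7% and 20.2% of all genes, such as *Slc1a4* at 45.5 against 137 CPM and *Sfxn1* at 5.06 against 49.97 CPM. Another of the 4, *Slc38a5*, is a venous marker by which the clusters were named.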

How the data were processed

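The authors deposited 1 table per age of UMI counts per gene and cell barcode, without normalization. The labels name Seurat 3.0 for filtering and list mm10 without its role, and the aligner for these counts is not given in the sources used here. Gene identifiers with a symbol numbered 22695 at P6 and 21745 at P15, and identifiers of 1 symbol were added. A processed pseudogene, *Phgdh-ps1*, is annotated but has no counts. Cluster labels came from the study's source data, where Primordial-Proliferative is called Proliferative and Primordial is called Primitive here.

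Passing cells had 200 to 3500 genes, up to 5% of UMIs from mitochondrial genes, and *Hbb-bt*, *Neurod1* and *Cd63* at 0. Labelled cells were used as labelled, with or without passing. No doublet caller was run, and the 9 P6 and 12 P15 passing cells in which *Xist* and a Y-linked gene were both found were left out as an alternative. UMIs were summed per group. Intervals are exact Poisson for levels, Clopper-Pearson for shares and conditional binomial for ratios, at 95%, and a count of 0 was bounded with 3 counts. A gene was counted where it had at least 50 UMIs over both sides, and called higher or lower from 1.5-fold. Likeness to a member is Pearson r of log CPM plus 10, named for 5 genes each. Predicted labels used 13 principal components. The comparison of summed counts and its ratio intervals were run on simulated Poisson counts. Thinning, cell cycle classes, label prediction and clumping of UMIs in single cells were not part of that simulation. The summed level in cells with few cell cycle UMIs and the shares of all genes within clusters were added after the values were seen.

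Software was scikit-learn 1.9.0, matplotlib 3.10.9, pandas 2.3.3, scipy 1.17.1 and numpy 2.4.6 in Python 3.11.15. Pathway genes named beside the members are those of the fixed lists past 1.5-fold, with examples. 3 genes of the marker and pathway lists were left out. Members and lists were chosen with earlier results of these data known. Alternatives changed the cells, depth, totals, reference cells, fold and class limits.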

Additional observations from a re-analysis of the deposited data

Results flagged for a closer look

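Some barcodes failed the criteria and have no label in the copy used here. They were used in no comparison except the alternative with all barcodes and the levels in *Neurod1* barcodes. The members were found in them above the level that a count of 0 allows. In the 399 such P6 barcodes the 8 members summed to 264 CPM (248 to 280; 1115 UMIs), against 173 CPM in passing cells, a ratio of 1.53 (1.41 to 1.65). Among them 168 had more than 3500 genes and 276 had an excluded marker (220 with *Cd63*, 98 with *Neurod1* and 13 with *Hbb-bt*), the median depth was 8110 UMIs, and S phase and mitosis genes summed to 1069 and 2309 CPM. In the 468 such P15 barcodes the members summed to 83.8 CPM (74.9 to 93.4; 325 UMIs), against 83.8 CPM in passing cells, a ratio of 0.999 (0.871 to 1.14). The copy used here holds labels of only 438 P15 cells, so some of these P15 barcodes may be labelled in the study. Of them 170 had more than 3500 genes, and the P6 and P15 sets are therefore not alike. The part of depth, other cell types or the cell cycle in these values was not tested.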

How the results depend on the processing

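Of 31 alternatives for the counts of members past 1.5-fold, 22 stayed within 1.5 times the reported count and 9 did not. For P15 against P6 the count of 7 was 1 (of 3 counted) without cells with 3 or more cell cycle UMIs, and 5 to 7 under the other settings. For Primitive cells the count of 5 was 3 after thinning, 2 at a fold of 2, 0 with predicted P15 labels and 1, a lower one, in cells with 0 to 2 cell cycle UMIs. That lower one is *Shmt2*, on 1 UMI in 25 Primitive cells with an interval of 0.00977 to 2.26, and no direction is read from it. For Proliferative cells the count of 6 was 3 with predicted P15 labels (2 higher, 1 lower). For Arterial against Cap-Venous cells the count of 2 was 0 after thinning. For the cell cycle classes the count of 4 was 2 without Proliferative cells and 2 after thinning to 2000 UMIs. Thinning and smaller groups left fewer members with 50 UMIs; otherwise the cause was not tested. Of 166 member ratios with enough UMIs 148 stayed inside their interval and 17 left it. The other 1, reported past 1.5-fold, lay on the other side of 1, *Shmt2* in Primitive cells with 0 to 2 cell cycle UMIs at 0.392. Below the UMI minimum, *Phgdh* and *Mthfd1l*, reported at 2.54 and 1.77, had 0 UMIs in these 25 Primitive cells. Of ratios reported within 1.5-fold, 9 lay on the other side of 1, at 0.762 to 1.20, for *Psph*, *Mthfd1* and *Shmt2*. The causes were not tested.

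No member reached 50 UMIs, so no value was given, for labelled P15 cells in the Primitive, Proliferative and Arterial comparisons, for Capillary cells as reference, and for cell cycle classes at P15. No paired analysis was possible because each age is 1 library from different animals. With 1 library per age, differences between ages and between libraries cannot be told apart, and *Phgdh*, *Shmt1* and *Mthfd1l* had 21, 12 and 38 UMIs at P15.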

Other observations

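*Xist* and Y-linked genes also differed among clusters. In Primitive P6 cells *Xist* was at 8.49 CPM and *Uty* at 3.18 CPM, against 42.6 and 27.7 CPM in the other labelled P6 cells, so both the X-linked and the Y-linked transcript were lower there. In the 98 P6 barcodes with *Neurod1*, *Shmt2* was at 81.0 CPM (63.2 to 102), *Psph* at 53.2 CPM (39.0 to 71.0), *Psat1* at 45.1 CPM and *Phgdh* at 22.0 CPM (13.2 to 34.3). Against passing P6 cells, *Psph* (18.6 CPM) and *Shmt2* (43.4 CPM) were thus higher in these barcodes, with intervals that do not overlap, and *Phgdh* (23.5 CPM) was not. A single barcode held 16 of the 70 *Shmt2* UMIs, and at most 6 of the 46 *Psph* UMIs were in 1 barcode. The intervals do not allow for such barcodes.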
